A study of Mus musculus with 6 samples.

Results

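The adult ovary was set against the neonatal ovary, each measured on 1 expression array of C57BL/6 mice. The adult tissue was taken at 10 weeks of age and the neonatal tissue on postnatal day 1, the labels call both simply ovary, and they name no treatment. These are 2 of 6 arrays in the study, which presented itself as a search for genes that act when chromosomes segregate in the first meiotic division. The others held fetal ovary and fetal testis at 15.5 days postcoitum, testis on postnatal day 1 and testis at 10 weeks, each on 1 array and from the same strain. Each array was hybridised with biotin-labelled cRNA made from total RNA. The number of animals behind each sample was not given in the sources used here, and the stage of the estrous cycle of the adult animals was not given either. With 1 array a side no spread between animals could be measured, so every difference below compares these 2 samples and carries no p-value.

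The comparison covered 18193 genes, each read by the brightest of its probe sets (a probe set is a group of short DNA probes that report on 1 transcript), after the arrays had been scaled to a common mean. Signals are in arbitrary units that can be compared between arrays for 1 gene but not between genes. Values under 75.3, the median of all probe sets, were set to that floor. A ratio against an array at the floor is therefore a lower bound, written "at least". A gene is said to have risen or fallen where the adult and neonatal signals differed 4-fold or more, which corresponds to 2 on the log2 scale. As a gauge of measurement error, the log2 ratio of a probe set had a robust SD of 0.32, estimated from 4472 pairs of probe sets that read the same gene, and 0.470% of such pairs were 4-fold or more apart. That gauge covers the probes and not the animals.

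The ovary of a newborn mouse holds oocytes that are finishing the prophase of the first meiotic division and being enclosed, one by one, by flat pregranulosa cells to form primordial follicles. In an adult, recruited follicles grow: granulosa cells multiply around the oocyte and make inhibin and estradiol, theca cells around the follicle make androgen from cholesterol, and after ovulation the follicle wall becomes a corpus luteum that makes progesterone. The oocyte meanwhile lays down its zona pellucida and stores the messages and proteins that the early embryo will use, while it rests in meiotic arrest. Whole tissue was measured, so a lower signal from fewer cells of a type and one from less RNA in each cell cannot be told apart.

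In all, 270 genes were higher in the adult ovary, 1.48% of those compared, and 343 were lower, 1.89% of those compared. Of the higher genes 80 were at the floor on the neonatal array, and of the lower genes 154 were at the floor on the adult array. The median log2 ratio of all genes was 0.00. Closest to the threshold, Pde7b stood just inside at 4.002-fold and Grik3 just outside at 3.97-fold among genes higher in the adult, and Klf5 stood inside at 4.002-fold and Fras1 outside at 3.99-fold among genes lower in the adult. The split between the directions rested on the scaling: left as deposited, the arrays gave 402 rises and 194 falls, so that 67.4% of the called genes were higher, against 44.0% after scaling. Over the genes that no floor touched in either ovary, 11408 after scaling, the median log2 ratio was -0.01. It was 0.39 over 11122 genes with the signals as deposited and 0.10 over 11330 genes with the arrays scaled to the same median. With scaling to the hybridization controls it was -0.17 over 11200 genes.

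**Figure D1:**
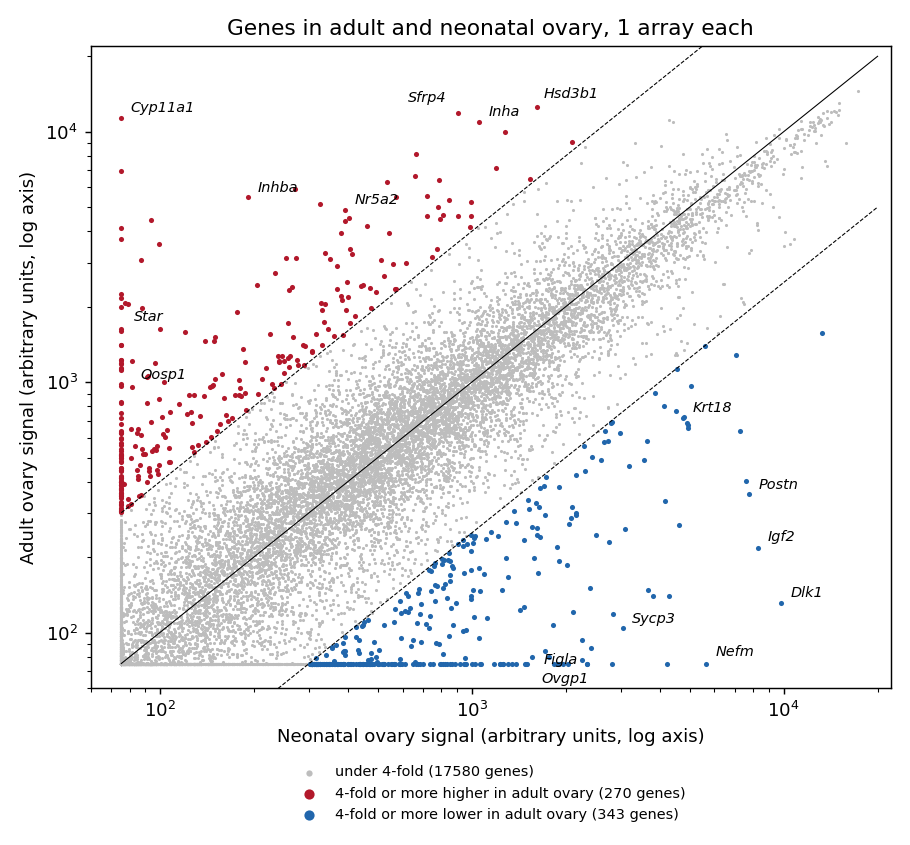
Signal of each gene on the neonatal (horizontal, log axis) and adult ovary array (vertical, log axis), 1 array each, in arbitrary units; the solid line marks equal signals and the dashed lines a ratio of 4. The 270 red points lie above the upper line and the 343 blue points below the lower one, and points on the left and bottom edges are at the floor of 75.3.

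Both arrays carried the markers of an ovary. Xist, the noncoding RNA of the inactive X chromosome, read 1950.1 in the neonatal and 3049 in the adult ovary, and the 4 Y-linked genes on the list of sex chromosome markers were at the floor on both. Foxl2, the transcription factor that keeps granulosa identity, read 878 and 2266, and Zp3, a zona pellucida protein made only by oocytes, read 1509 and 2126. The neonatal array differed from the adult array in technical measures too. Its mean signal before scaling was the lowest of the 6 arrays, 256 against 341 in the adult ovary, and its ratio of 3′ to 5′ probe sets for the control Gapdh, which rises when RNA is degraded, was 3.12 against 1.32. The same ratio for Actb was 3.28 against 2.91. The part of RNA quality in the differences between these arrays was not tested.

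Several lists of markers of other tissues and cells also had a higher summed signal on the neonatal array than on any of the other 5. The 21 measured genes of duct and oviduct epithelium summed to 33814 on the neonatal ovary array, to 6832 in the adult ovary and to 14821 in the fetal ovary, counting members above the floor. On the neonatal testis array they summed to 7447. Skeletal muscle genes summed to 4094 in the neonatal and 561 in the adult ovary, nerve and glia genes to 14155 and 963, and genes of liver and plasma proteins to 6842 and 1275. Mast cell genes summed to 7840.1 and 1322. Not every such list was highest there. Adrenal cortex genes summed to 364.6 in the neonatal and 1434.5 in the adult ovary, and adipocyte genes to 6547 in the neonatal ovary and 7143 in the neonatal testis. The number of list members above the floor in neonatal and adult ovary was 21 and 16 of 21 for the duct list, 7 and 4 of 10 for skeletal muscle, 12 and 6 of 16 for nerve and glia, 9 and 1 of 10 for liver and plasma and 7 and 4 of 9 for mast cells. In the adult ovary Ovgp1, Acta1, Nefm and Alb, which define 4 of these lists, were at the floor. By contrast the sums of endothelial genes, 13096 and 11326, and of smooth muscle genes, 35438 and 38859.6, were close to each other. How far such tissue shaped the genes that fell was not tested. For some of the genes lower in the adult ovary, the fetal ovary value is given below.

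**Figure D2:**
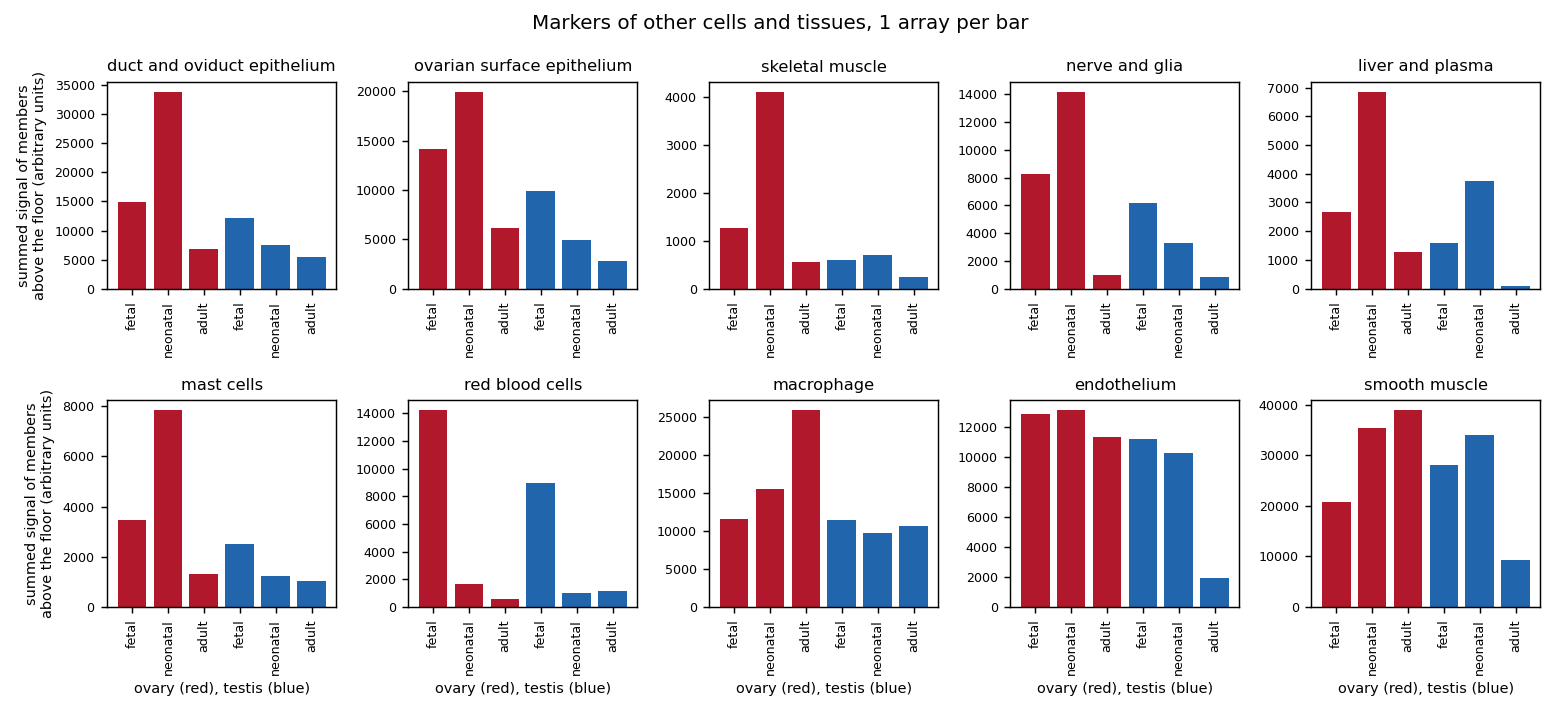
Summed signal (arbitrary units) of the members above the floor of 10 lists of other cells and tissues, on the 3 ovary arrays (red) and 3 testis arrays (blue), 1 array per bar and a separate vertical scale from 0 in each panel. Duct, surface epithelium, skeletal muscle, nerve, liver and mast cell sums were highest on the neonatal ovary array, the macrophage sum was highest in the adult ovary, and the red blood cell sum was highest in the fetal ovary.

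The growth of follicles showed first in the granulosa genes. Of 31 measured genes of granulosa identity 14 rose and 1 fell, with a median log2 ratio of 1.90, beside 1.48% and 1.89% of all genes and an overall median of 0.00. The 3 chains from which inhibins and activins are built all rose. Inha, the alpha chain found only in inhibins, rose from 1059 in the neonatal to 10983 in the adult ovary, 10.4-fold. Inhba, the beta A chain, read 192 on the neonatal and 5488 on the adult array, 28.5-fold higher. Inhbb, the beta B chain, read 270.5 in the neonatal and 5920.2 in the adult ovary, 21.9-fold higher. In the fetal ovary the same 3 genes read 545, 511 and 359, so all were already made before birth and the adult level was the highest of the ovary arrays. Fst, which encodes follistatin, the secreted protein that binds and blocks activin, rose from 512 in the neonatal to 3077 in the adult ovary, 6.01-fold. Amh, the hormone of small growing follicles that restrains the recruitment of others, was at the floor in the neonatal ovary and read 1197 in the adult ovary, at least 15.9-fold higher, while its receptor gene Amhr2 read 3778 in the neonatal and 5296 in the adult ovary, 1.40-fold higher.

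Enzymes and receptors of the gonadotropin-driven granulosa cell followed. Hsd17b1, which turns estrone into estradiol, was at the floor in the neonatal ovary and read 4124 in the adult ovary, at least 54.8-fold higher. Fshr, the receptor for follicle-stimulating hormone, read 79.0 on the neonatal and 319 on the adult array, 4.04-fold higher, just past the threshold. Esr2, the estrogen receptor of granulosa cells, was at the floor in the neonatal ovary and read 388 in the adult ovary, at least 5.15-fold higher. Nppc, whose peptide product acts on cumulus cells to hold the oocyte in arrest, was at the floor in the neonatal ovary and read 374 in the adult ovary, at least 4.96-fold higher, and its receptor gene Npr2 read 1564 in the neonatal and 1770.3 in the adult ovary, 1.13-fold higher. Receptor genes for both of these secreted signals, Amhr2 and Npr2, were thus at similar levels on the 2 arrays, while Amh and Nppc themselves were at the floor on the neonatal array. The aromatase gene Cyp19a1 and the luteinizing hormone receptor gene Lhcgr were not analysed here.

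Several regulators of the same cells rose as well. Nr5a2, the nuclear receptor needed for ovulation, read 393 in the neonatal and 4884 in the adult ovary, 12.4-fold higher, and Nr5a1, the related steroidogenic factor 1, rose from 522 in the neonatal to 2648 in the adult ovary, 5.07-fold. Greb1, a gene induced by estrogen, read 326 on the neonatal and 5160.0 on the adult array, 15.8-fold higher, with a log2 ratio of 4.25 for its other probe set above the floor on both arrays. Nap1l5, a member of the nucleosome assembly family, was at the floor in the neonatal ovary and read 3737 in the adult ovary, at least 49.6-fold higher, and Slc18a2, a vesicular monoamine transporter, rose from 120.3 in the neonatal to 1579.8 in the adult ovary, 13.1-fold. Other granulosa genes stayed under the threshold. Gata4, a partner of Foxl2, read 522 in the neonatal and 1671 in the adult ovary, 3.20-fold higher, and Wnt4, which promotes ovary fate, read 1275 in the neonatal and 2477 in the adult ovary, 1.94-fold higher. Kitl, the ligand through which granulosa cells feed oocyte growth, read 2216 in the neonatal and 2393 in the adult ovary, 1.08-fold higher. The gene that fell, Rspo1, encodes a secreted activator of Wnt signalling that promotes ovary fate, and it read 1654 on the neonatal and 241 on the adult array, 6.85-fold lower. Rspo1 is also on the list of surface epithelium genes, where it was 1 of the 6 of 13 that fell. Which cells lay behind its lower signal was not tested.

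Hedgehog ligands are made by granulosa cells and received by the future theca. Dhh read 105 in the neonatal and 647 in the adult ovary, 6.14-fold higher, and Ihh read 107 in the neonatal and 316 in the adult ovary, 2.95-fold higher. In the receiving cells Ptch1, receptor and target of the pathway, read 708 in the neonatal and 2471 in the adult ovary, 3.49-fold higher, Gli1 read 116 in the neonatal and 155 in the adult ovary, 1.33-fold higher, and Hhip was at the floor in the neonatal ovary and read 127 in the adult ovary, at least 1.69-fold higher. On the list of 16 theca and hedgehog genes, which includes the receptor side only, 2 rose and 0 fell: Cyp17a1 and Nr5a1. Gli3, which codes for a repressor form of the pathway, read 831 in the neonatal and 231 in the adult ovary, 3.59-fold lower. The list's median log2 ratio was 0.04, near the overall median, and it turned to -0.13 with scaling to the hybridization controls. Of the growth factors of theca cells, Bmp4 read 619.9 on day 1 and 468 in the adult, and Bmp7 read 335 on day 1 and 193 in the adult.

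In the wider TGF-beta family 7 of 39 measured genes rose and 0 fell, 5 of them the inhibin chains, Amh and Fst. The others were Bmp2 and the receptor gene Bmpr1b. Bmp2 read 156 in the neonatal and 678 in the adult ovary, 4.36-fold higher. Bmpr1b, a type I receptor that granulosa cells use for oocyte-made growth factors, rose from 241 in the neonatal to 1208 in the adult ovary, 5.02-fold, and its type II partner Bmpr2 read 2217 in the neonatal and 5361 in the adult ovary, 2.42-fold higher. The intracellular transducers Smad1, Smad3 and Smad4 were under 2-fold apart on the arrays. Smad3, which acts for activin, read 2925 on day 1 and 1747 in the adult. Of the 7 genes that rose, 6 thus encode secreted ligands or their binder and 1 a receptor.

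Steroid synthesis held the largest ratio of the comparison, that of Cyp11a1. Of 15 measured genes 8 rose and 0 fell, with a median log2 ratio of 2.38. The pathway starts with Star, which carries cholesterol into the mitochondrion, and Star read 77.1 in the neonatal and 2072 in the adult ovary, 26.9-fold higher; another of its probe sets, above the floor on both arrays, read 129.9 and 1210.5. Cyp11a1, the side-chain cleavage enzyme that makes pregnenolone, was at the floor in the neonatal ovary and read 11368 in the adult ovary, at least 151-fold higher. That value came from 1 of 3 probe sets of Cyp11a1; a second read at the floor and 99.6, and the third was at the floor on both arrays. Fdx1, the electron donor of Cyp11a1, read 1283 on the neonatal and 9965 on the adult array, 7.77-fold higher. Hsd3b1, which completes progesterone, read 1615 in the neonatal and 12501 in the adult ovary, 7.74-fold higher.

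Further along the pathway Cyp17a1, the theca enzyme that makes androgens, was at the floor in the neonatal ovary and read 1999 in the adult ovary, at least 26.6-fold higher. Hsd17b7, which acts both on estrone and in cholesterol synthesis, read 219.6 on the neonatal and 1143 on the adult array, 5.20-fold higher. Its other probe set above the floor on both arrays read 145.7 and 306.8, a log2 ratio of 1.07 and under the threshold. Cyp1b1, which hydroxylates estradiol, read 807 in the neonatal and 4667 in the adult ovary, 5.78-fold higher. On the probe sets used, Star, Cyp11a1, Cyp17a1 and Hsd17b1 were thus at or within 2 units of the floor in the neonatal ovary, whereas Fdx1 and Hsd3b1 were not. The fetal ovary showed the same division, with Star, Cyp11a1, Cyp17a1 and Hsd17b1 at the floor, Fdx1 at 1289 and Hsd3b1 at 424. Of the 7 members that did not rise Hsd17b3 and Sult1e1 were at the floor on both arrays. Akr1c14 came closest to the threshold, at 1293 on day 1 and 4691 in the adult, whereas Hsd17b4 read 1844 on day 1 and 2165 in the adult, and Srd5a3 read 748 on day 1 and 755 in the adult.

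The corpus luteum was represented by 26 measured genes, of which 9 rose and 0 fell, with a median log2 ratio of 0.91. Of these 9, 6 serve steroid or cholesterol handling. Cyp11a1, Hsd17b7, Hsd3b1 and Star were already counted on the steroid synthesis list. Scarb1 is also on the list of cholesterol uptake and storage. Ptgfr, the receptor through which prostaglandin F2 alpha ends the life of the corpus luteum, was at the floor in the neonatal ovary and read 2258 in the adult ovary, at least 30.0-fold higher; another of its probe sets, above the floor on both arrays, read 104 and 1779. Akr1c18, which breaks down progesterone, read 393 on the neonatal and 4416 on the adult array, 11.2-fold higher. Sfrp4, a secreted Wnt inhibitor found in luteal tissue, read 906 in the neonatal and 11851 in the adult ovary, 13.1-fold higher. Sgk1, a kinase induced by hormones, rose from 381 in the neonatal to 3928 in the adult ovary, 10.3-fold. Akr1cl, a relative of Akr1c18, read 4303 in the neonatal and 11142 in the adult ovary, 2.59-fold higher, though its other probe set was at the floor on day 1 and read 2212 in the adult, and Vegfa, the angiogenic factor, read 377 in the neonatal and 483 in the adult ovary, 1.28-fold higher.

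Supply of cholesterol to these cells was marked by Scarb1, the receptor that takes up cholesterol esters from high-density lipoprotein, which rose from 404 in the neonatal to 4543 in the adult ovary, 11.3-fold. It was the 1 gene of 22 in cholesterol uptake and storage that rose, and 4 rose with the signals as deposited. With cross-hybridizing probe sets left out, here all those with names ending in _a_at, _s_at or _x_at, 0 rose. Every probe set of Scarb1 has such a name, so the gene was then not measured. Its probe sets other than the brightest had log2 ratios of 2.77 and 3.12. Apoe read 1725 in the neonatal and 6232 in the adult ovary, 3.61-fold higher. The cholesterol exporter gene Abca1 read 663 in the neonatal and 2360.0 in the adult ovary, 3.56-fold higher, and the hormone-sensitive lipase gene Lipe read 108 in the neonatal and 359.8 in the adult ovary, 3.32-fold higher. Cholesterol synthesis contributed 4 of 17 measured genes: Hsd17b7, Msmo1, Sc5d and Fdps. Msmo1 read 471 on the neonatal and 2366 on the adult array, 5.02-fold higher, and Fdps read 571 in the neonatal and 2346 in the adult ovary, 4.11-fold higher. Sc5d rose from 346 in the neonatal to 1625 in the adult ovary, 4.70-fold, but another of its probe sets read 113 and 109.8. The earlier enzyme Hmgcs1 read 4740.1 on day 1 and 5282 in the adult, and Sqle read 1022 on day 1 and 915 in the adult, so the enzymes of 1 pathway did not move alike. With probe sets that can cross-hybridize left out, 2 genes of this list rose. Msmo1 was then read by a probe set at the floor on both arrays.

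Genes of ovulation, which needs a surge of luteinizing hormone, were mixed. Of 21 measured genes 3 rose and 1 fell. Cebpa, a transcription factor of granulosa cells that respond to the surge, read 129 on the neonatal and 892 on the adult array, 6.92-fold higher. Timp1, an inhibitor of matrix proteases, read 443 in the neonatal and 2416 in the adult ovary, 5.45-fold higher, and Rgcc, a regulator of the cell cycle, rose from 395 in the neonatal to 1936 in the adult ovary, 4.90-fold. Pgr, the progesterone receptor gene that the surge induces for some hours, read 431 on the neonatal and 85.4 on the adult array, 5.05-fold lower. Of the cumulus expansion genes, Has2 read 94.2 on day 1 and was at the floor in the adult, and Ptx3 read 83.9 on day 1 and 183 in the adult. The protease gene Adamts1 read 1086 in the neonatal and 397 in the adult ovary, 2.74-fold lower.

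**Figure D3:**
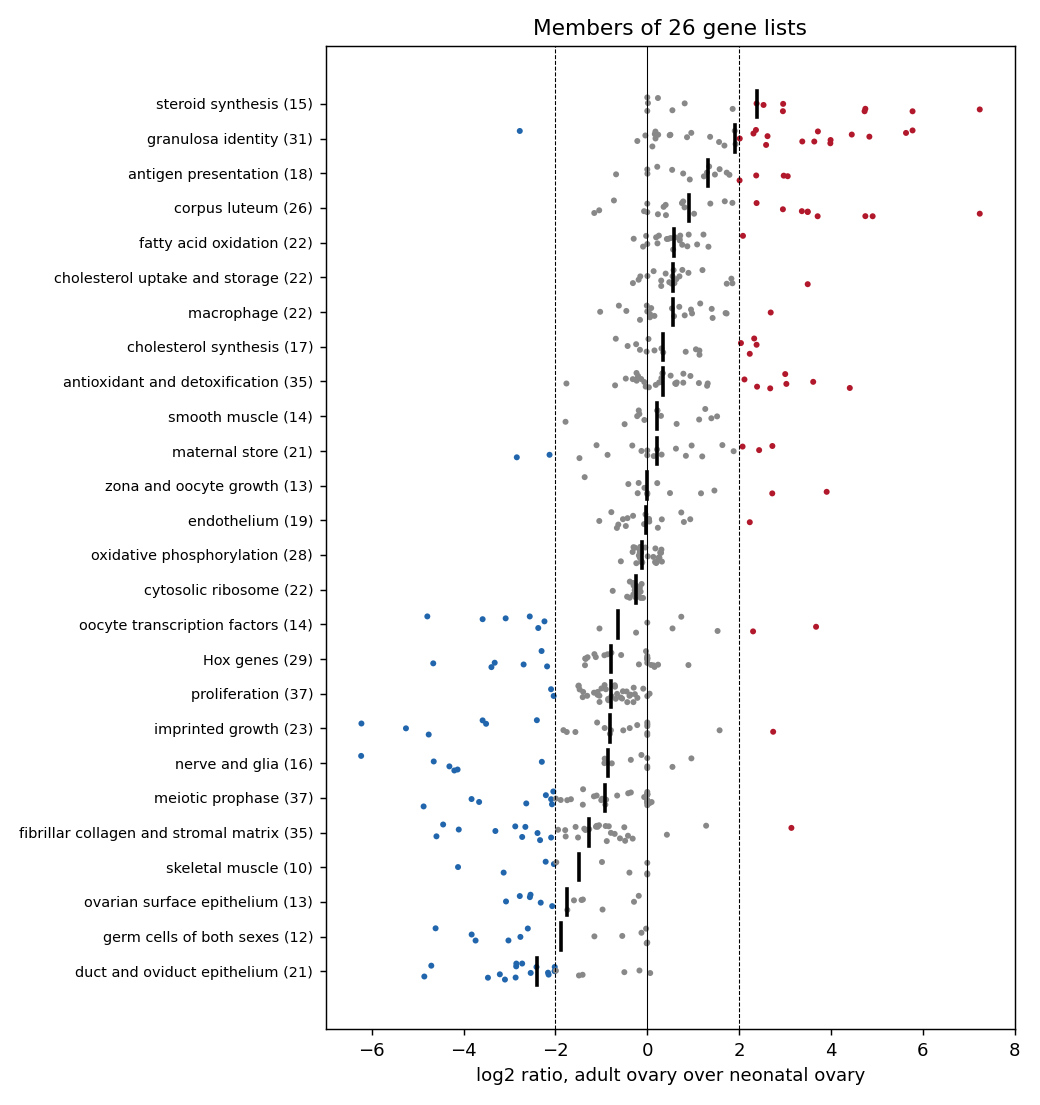
Log2 ratio of adult over neonatal ovary (horizontal axis) for every measured member of 26 lists (number measured in brackets), with the list's median as a black bar; red points are 4-fold or more higher, blue points 4-fold or more lower, and dashed lines mark 4-fold. Steroid synthesis and granulosa identity sat at the top with medians of 2.38 and 1.90, and duct and oviduct epithelium at the bottom with -2.41.

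Detoxification and redox enzymes formed another group that was high in the adult ovary, with 7 of 35 measured genes up and 0 down and a median log2 ratio of 0.34. Ephx2 and Ephx1, the soluble and microsomal epoxide hydrolases, both rose. Ephx2 rose from 664 in the neonatal to 8124 in the adult ovary, 12.2-fold, and Ephx1 read 720.1 on the neonatal and 4603 on the adult array, 6.39-fold higher. Gpx3, the secreted glutathione peroxidase, read 784 in the neonatal and 6391 in the adult ovary, 8.16-fold higher. Mgst2, a microsomal glutathione transferase, was at the floor in the neonatal ovary and read 1599 in the adult ovary, at least 21.2-fold higher, and Gsta2 read 81.1 on the neonatal and 650.0 on the adult array, 8.02-fold higher. Mt1, a metallothionein, read 2098 in the neonatal and 9092 in the adult ovary, 4.33-fold higher, and Sod3, the extracellular superoxide dismutase, rose from 75.5 in the neonatal to 396 in the adult ovary, 5.24-fold. The dismutases of cytosol and mitochondrion differed little: Sod1 read 10864 on day 1 and 9454 in the adult, and Sod2 read 2763 on day 1 and 3489 in the adult. With cross-hybridizing probe sets left out, 4 members rose.

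Energy metabolism moved less. Among 22 genes of fatty acid oxidation 1 rose, Pdk4, a kinase that turns cells from glucose to fat, which read 165 on the neonatal and 699.8 on the adult array, 4.24-fold higher. The list's median log2 ratio was nevertheless 0.59, with Hadha at 982 on day 1 and 2292 in the adult, and Acads at 357 on day 1 and 898 in the adult. In oxidative phosphorylation 0 of 28 genes rose or fell, and their log2 ratios ran from -0.58 to 0.32. The cytosolic ribosome, 22 genes, and the housekeeping list, 14 genes, likewise held 0 called genes. Both had a median log2 ratio of -0.24, which turned to 0.17 and 0.18 with the signals as deposited.

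The genes of 3 class II antigen chains and of their escort Cd74 rose in the adult ovary. Of 18 measured genes of antigen presentation and interferon response 4 rose and 0 fell, with a median log2 ratio of 1.32. Cd74, the invariant chain that escorts class II molecules, read 408 in the neonatal and 3394 in the adult ovary, 8.33-fold higher. Of the class II chains, H2-Aa went from 370.2 to 2901, H2-Eb1 from 336 to 1736 and H2-Ab1 from 289.6 to 1166, ratios of 7.84-fold, 5.17-fold and 4.03-fold. H2-DMa, which helps to load class II molecules, stayed under the threshold at 84.9 on day 1 and 199.6 in the adult, and Ciita, the activator of class II genes, was at the floor on both arrays. Class I genes stayed under the threshold too: H2-D1 read 2075 on day 1 and 5276 in the adult, and H2-K1 read 2442 on day 1 and 6013 in the adult, although another probe set of H2-K1 gave a log2 ratio of 3.09. With probe sets that can cross-hybridize left out, 1 member rose, but H2-Aa and H2-Ab1 had no other probe set and were then not measured. The log2 ratios of their probe sets ran from 1.53 to 3.96 for H2-Aa and from 2.01 to 2.59 for H2-Ab1. Macrophage genes, 22 measured, had a median log2 ratio of 0.56 and 1 gene that rose: Mpeg1, a pore-forming protein of phagocytes, rose from 188 in the neonatal to 1209 in the adult ovary, 6.44-fold. Lyz2 read 1155 in the neonatal and 3765 in the adult ovary, 3.26-fold higher, whereas Adgre1, a macrophage marker, read 382 on day 1 and 405 in the adult, and Csf1r, another, read 3113 on day 1 and 2027 in the adult. Lymphocyte markers stayed at or near the floor, with 7 of 11 at the floor on both arrays.

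Oocyte genes did not move alike. Of 13 genes of the zona pellucida and oocyte growth 2 rose and 0 fell, and the median log2 ratio was 0.00. The 3 zona genes were already made on day 1: Zp1 read 771 on day 1 and 677 in the adult, Zp2 read 1969 on day 1 and 1479 in the adult and Zp3 read 1509 on day 1 and 2126 in the adult. All 3 were at the floor in the fetal ovary, so they passed the floor between 15.5 days postcoitum and postnatal day 1. Gdf9, the growth factor by which the oocyte directs its granulosa cells, read 1065 in the neonatal and 2395 in the adult ovary, 2.25-fold higher, and Bmp15, its partner, was at the floor in the neonatal ovary and read 207 in the adult ovary, at least 2.75-fold higher. Oosp1, an oocyte secreted protein, read 81.4 on the neonatal and 1219 on the adult array, 15.0-fold higher. Bcl2l10, a member of the Bcl2 family in oocytes, read 147 in the neonatal and 967 in the adult ovary, 6.59-fold higher. Both Oosp1 and Bcl2l10 were at the floor in the fetal ovary. Kit, the receptor for Kitl, read 1861 in the neonatal and 724 in the adult ovary, 2.57-fold lower; mast cells make it too.

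The store of maternal products contained genes that moved both ways. Of 21 measured 3 rose and 2 fell. E330034G19Rik, a gene of oocytes, read 145 on the neonatal and 959.8 on the adult array, 6.60-fold higher, Omt2b, an oocyte maturation gene, read 86.5 in the neonatal and 468 in the adult ovary, 5.41-fold higher, and Zar1, which the zygote needs to divide, rose from 277 in the neonatal to 1167 in the adult ovary, 4.21-fold. Dppa3, which guards the maternal methylation of the egg, read 4911 on the neonatal and 685 on the adult array, 7.17-fold lower, and Nlrp4f read 1652 in the neonatal and 378 in the adult ovary, 4.37-fold lower. The subcortical maternal complex, a protein assembly of the egg, was represented on day 1 already. Nlrp5 read 2445 on day 1 and 879 in the adult, and Padi6 read 3747 on day 1 and 1742 in the adult. Tle6 read 2314 on day 1 and 1271 in the adult, and Ooep read 1621 on day 1 and 1293 in the adult. In the fetal ovary Nlrp5 and Padi6 were at the floor, and Dppa3 read 253, so for these 3 genes day 1 was the highest of the 3 ages.

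Transcription factors that start and sustain the primordial follicle were lower in the adult. Of 14 measured oocyte transcription factors 6 fell and 2 rose. Figla, needed for the first follicles to form, fell from 2405 in the neonatal to 87.0 in the adult ovary, 27.6-fold. Sohlh1 read 954 on the neonatal and 79.5 on the adult array, 12.003-fold lower, and its partner Sohlh2 read 355 in the neonatal ovary and was at the floor in the adult ovary, at least 4.72-fold lower. Lhx8 fell from 1254 in the neonatal to 148 in the adult ovary, 8.48-fold, and Nobox, which drives Gdf9, read 1556 on the neonatal and 264 on the adult array, 5.89-fold lower. Taf7l, a germ cell form of a general transcription factor subunit, read 390.2 in the neonatal ovary and was at the floor in the adult ovary, at least 5.18-fold lower. In the fetal ovary Sohlh1, Lhx8 and Nobox were at the floor and Figla read 352, which left day 1 as the peak of the 3 ages for all 4. The 2 that rose belong to the oocyte homeobox family: Obox2 was at the floor in the neonatal ovary and read 961 in the adult ovary, at least 12.8-fold higher, and Obox5 was at the floor in the neonatal ovary and read 372 in the adult ovary, at least 4.94-fold higher. Foxo3, which holds primordial follicles at rest, read 1540.3 on day 1 and 1300.3 in the adult, and Foxo1, the form found in granulosa cells, read 1618 in the neonatal and 4673 in the adult ovary, 2.89-fold higher.

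**Figure D4:**
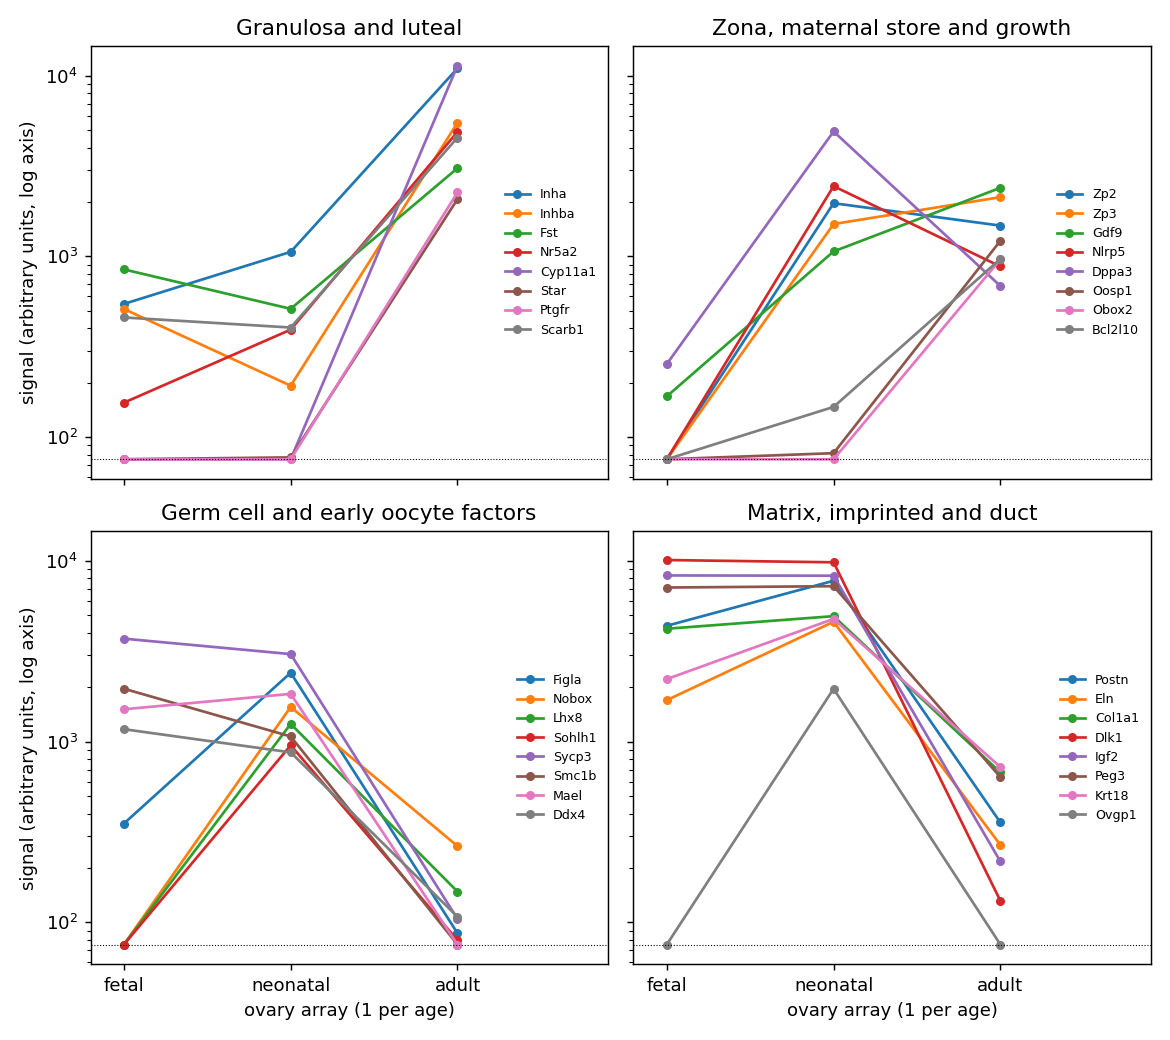
Signal (arbitrary units, log axis) of 32 genes on the fetal, neonatal and adult ovary arrays, 1 per age, with a dotted line at the floor of 75.3. Granulosa and luteal genes peaked in the adult, Figla, Nobox, Lhx8 and Sohlh1 peaked on day 1, Zp2 and Zp3 were near their adult signal by day 1, and matrix, imprinted and duct genes were lowest in the adult except Ovgp1, which was at the floor in fetal and adult ovary alike.

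Some genes of meiotic prophase were lower in the adult ovary. Of 37 measured 8 fell, 0 rose and 11 were at the floor on both arrays, with a median log2 ratio of -0.91, and 4 fell with the signals as deposited or 5 with the arrays scaled to the same median. Sycp3, the axial element of the synaptonemal complex, fell from 3051 in the neonatal to 104 in the adult ovary, 29.2-fold. Syce1 and Syce2, which belong to its central element, behaved differently in size: Syce1 read 953 in the neonatal ovary and was at the floor in the adult ovary, at least 12.7-fold lower, and Syce2 read 3872 in the neonatal and 907 in the adult ovary, 4.27-fold lower. Smc1b, the meiotic cohesin subunit, read 1068 in the neonatal ovary and was at the floor in the adult ovary, at least 14.2-fold lower, and Rec8, the meiotic cohesin kleisin, read 392 on the neonatal and 84.8 on the adult array, 4.62-fold lower. Sycp1 of the transverse filament read 468 in the neonatal ovary and was at the floor in the adult ovary, at least 6.21-fold lower, and Rec114, which helps to make the programmed breaks, read 317 in the neonatal ovary and was at the floor in the adult ovary, at least 4.21-fold lower. Stag3, a further cohesin subunit, read 311 in the neonatal ovary and was at the floor in the adult ovary, at least 4.13-fold lower.

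Parts of the same programme had already dropped between the fetal and neonatal arrays. Spo11, which cuts the DNA, read 430.0 in the fetal, 96.5 in the neonatal and the floor in the adult ovary. Dmc1, the meiotic recombinase, read 550.3 and 119 before reaching the floor, and Tex12 read 1125 and 162 before the same. By contrast Sycp3, at 3715 and 3051, and Syce2, at 4637 and 3872, were close on the 2 younger arrays. Other synaptonemal complex genes sided with Tex12 in this: Sycp2 read 884 in the fetal and 140.1 in the neonatal ovary, and Syce3 826 and 199.

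Germ cell genes shared with the male line fell in 6 of 12 cases, with 0 rises and a median log2 ratio of -1.88. Mael, which silences transposons, read 1838 in the neonatal ovary and was at the floor in the adult ovary, at least 24.4-fold lower. Piwil2, a partner of small piRNAs, read 1005 in the neonatal ovary and was at the floor in the adult ovary, at least 13.3-fold lower, and Tdrd9, a helicase of the same pathway, read 1066 in the neonatal ovary and was at the floor in the adult ovary, at least 14.2-fold lower. Ddx4, the RNA helicase that marks germ cells, read 872 in the neonatal and 107 in the adult ovary, 8.13-fold lower. Dazl, an RNA-binding protein of germ cells, fell from 893 in the neonatal to 132 in the adult ovary, 6.79-fold. Piwil2 and Tdrd9 were higher on day 1 than in the fetal ovary, where they read 195 and the floor, in the opposite order to Ddx4 at 1172 and Dazl at 1916. Trp63, the p53 relative that removes damaged oocytes, read 319.9 in the neonatal ovary and was at the floor in the adult ovary, at least 4.25-fold lower.

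Figla, Sohlh1 and Sohlh2 encode proteins of the basic helix-loop-helix family, which recognise the E-box CANNTG. Whether these proteins act on the genes shown here was not tested. The 250 bases before the transcription start are shown for an oocyte gene that rose, Oosp1, and for 3 germ cell genes that fell, Sohlh1, Sycp3 and Mael, with each E-box in capitals. The sequences are from RefSeq on GRCm38.p6, 5′ to 3′ on the gene's own strand.

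Oosp1: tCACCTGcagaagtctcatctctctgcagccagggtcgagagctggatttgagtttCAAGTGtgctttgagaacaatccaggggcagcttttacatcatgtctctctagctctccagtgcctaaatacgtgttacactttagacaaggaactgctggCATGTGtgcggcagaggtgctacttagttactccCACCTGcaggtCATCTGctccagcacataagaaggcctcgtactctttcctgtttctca
Sohlh1: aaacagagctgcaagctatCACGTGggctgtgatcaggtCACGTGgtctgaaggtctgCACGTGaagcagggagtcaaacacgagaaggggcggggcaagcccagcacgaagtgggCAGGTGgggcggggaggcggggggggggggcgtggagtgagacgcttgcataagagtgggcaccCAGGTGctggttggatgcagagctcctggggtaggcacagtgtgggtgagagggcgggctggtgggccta
Sycp3: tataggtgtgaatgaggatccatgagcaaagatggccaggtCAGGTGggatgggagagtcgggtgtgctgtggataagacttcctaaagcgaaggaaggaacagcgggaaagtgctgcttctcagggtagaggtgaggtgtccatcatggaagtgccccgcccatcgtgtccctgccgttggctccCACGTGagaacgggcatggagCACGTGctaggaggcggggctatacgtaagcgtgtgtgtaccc
Mael: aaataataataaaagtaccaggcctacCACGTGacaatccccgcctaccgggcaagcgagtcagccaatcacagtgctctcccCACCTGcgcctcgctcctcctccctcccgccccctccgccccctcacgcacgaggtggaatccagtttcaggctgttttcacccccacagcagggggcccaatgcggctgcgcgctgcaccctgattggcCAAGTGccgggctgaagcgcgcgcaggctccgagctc

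These windows lie at chr19:11691052-11691301 on the minus strand for Oosp1, chr2:25847249-25847498 on the minus strand for Sohlh1, chr10:88459337-88459586 on the plus strand for Sycp3 and chr1:166238745-166238994 on the minus strand for Mael. They held 5, 5, 3 and 3 E-boxes. CANNTG reads the same on both strands and is common: with 250 bases before and 50 after the start, 74.99% of the 27025 genes with a promoter in the table had 1 or more, and so had 70.9% of the 14452 genes compared here that have one. The share was 76.7% of the 202 genes with a promoter that rose and 72.2% of the 252 that fell. AAGGTCA, the site of Nr5a1 and Nr5a2, searched on both strands, stood in 5.45% of the genes that rose, 3.97% of those that fell, 4.61% of the genes compared and 5.38% of the whole table. TGACGTCA, the cAMP response element, which reads the same on both strands, stood in 1.98%, 1.98%, 2.92% and 2.03% of these. Neither of those motifs contains an E-box. Such matches describe letters in these windows and not bound sites.

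Imprinted genes that control growth held the largest fall of any gene measured above the floor in adult and neonatal ovary, seen for Dlk1. Of 23 measured 6 fell and 1 rose, with a median log2 ratio of -0.81. Dlk1, a membrane protein of immature stromal cells, read 9828 in the neonatal and 131 in the adult ovary, 74.7-fold lower, and its other probe set read 397 on day 1 and was at the floor in the adult. Igf2, the fetal growth factor, fell from 8286 in the neonatal to 217 in the adult ovary, 38.2-fold; its other probe set read 84.5 in the neonatal ovary and was at the floor in the adult. Cdkn1c, which stops the cell cycle, read 3801 on the neonatal and 140.4 on the adult array, 27.1-fold lower. Mest read 3106 in the neonatal and 259 in the adult ovary, 12.002-fold lower, Peg3 fell from 7250.0 in the neonatal to 636 in the adult ovary, 11.4-fold, and Slc38a4, an amino acid transporter, read 851 on the neonatal and 161 on the adult array, 5.29-fold lower. In the fetal ovary Dlk1, Igf2 and Peg3 read 10118, 8314 and 7127, close to day 1.

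Other members of the imprinted list were under the threshold. Ndn read 7294 in the neonatal and 2164 in the adult ovary, 3.37-fold lower, and Plagl1, which acts on several genes of this group, read 8198 in the neonatal and 4309 in the adult ovary, 1.90-fold lower. Meg3 read 10511 in the neonatal and 3552 in the adult ovary, 2.96-fold lower, with log2 ratios between -0.40 and -2.90 for its other probe sets above the floor on both arrays. Gnas, which couples hormone receptors to cAMP, read 10578 on day 1 and 8115 in the adult. The imprinted gene that rose was Asb4, which read 83.3 in the neonatal and 557 in the adult ovary, 6.68-fold higher. Its fetal ovary signal was 538, so day 1 was the lowest of the 3 ages. Among the insulin-like growth factor genes, 2 of 16 fell: Igf2 and the binding protein gene Igfbp3, which fell from 2084 in the neonatal to 288 in the adult ovary, 7.24-fold. Igf1 read 4806 in the neonatal and 1342 in the adult ovary, 3.58-fold lower, with log2 ratios between -1.95 and -0.05 for its other probe sets, and the receptor gene Igf1r read 611 in the neonatal and 1234 in the adult ovary, 2.02-fold higher, with another of its probe sets at a log2 ratio of -1.13.

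Of 37 proliferation genes 2 fell, Ccne1 and Tk1, and 0 rose; 0 fell with the signals as deposited or scaled to the same median, and 1 without cross-hybridizing probe sets. Ccne1, a cyclin of the G1 to S transition, fell from 805 in the neonatal to 196 in the adult ovary, 4.11-fold, and Tk1, which makes thymidine phosphate for DNA synthesis, read 805 on the neonatal and 188 on the adult array, 4.27-fold lower. Signals were lower in the adult as a group, with a median log2 ratio of -0.78 and 13 members 2-fold or more lower. Mki67, the marker of cycling cells, read 3609 in the neonatal and 1277 in the adult ovary, 2.83-fold lower, Birc5, which acts in chromosome separation, read 3342 in the neonatal and 1187 in the adult ovary, 2.82-fold lower, and Top2a, a topoisomerase, read 3069.5 in the neonatal and 1700.2 in the adult ovary, 1.81-fold lower. They were far above the floor in the adult too. Among regulators of cell cycle exit 3 of 19 rose and 1 fell, the latter being Cdkn1c. Cdkn2b, an inhibitor of cyclin D kinases, read 91.0 in the neonatal and 826 in the adult ovary, 9.08-fold higher, and the stress-induced Gadd45a rose from 179 in the neonatal to 1016 in the adult ovary, 5.67-fold. Its relative Gadd45g read 126 on the neonatal and 553 on the adult array, 4.37-fold higher. Cdkn1b read 1285 on day 1 and 1224 in the adult, and Ccnd2, the cyclin D of granulosa cells, read 5533 on day 1 and 4118 in the adult, with log2 ratios from -0.46 to 0.60 for other probe sets of Ccnd2 above the floor on both arrays.

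Stromal matrix genes were lower in the adult ovary. Of 35 genes of fibrillar collagen and stromal matrix 10 fell and 1 rose, with a median log2 ratio of -1.26. Postn, periostin, read 7769.7 in the neonatal and 357 in the adult ovary, 21.8-fold lower, and Col14a1, a collagen of fibril surfaces, fell from 2847 in the neonatal to 118 in the adult ovary, 24.1-fold. Eln, elastin, read 4608 on the neonatal and 268 on the adult array, 17.2-fold lower, Loxl1, which cross-links it, read 4768 in the neonatal and 722 in the adult ovary, 6.61-fold lower, and Mfap4, a protein of elastic fibres, fell from 3658 in the neonatal to 581 in the adult ovary, 6.30-fold. Col1a1 read 4948 on the neonatal and 675 on the adult array, 7.33-fold lower, and Col5a1 read 5052 in the neonatal and 964 in the adult ovary, 5.24-fold lower. The partner chains of the main fibrils moved less: Col1a2 read 13612 on day 1 and 7614 in the adult, and Col3a1 read 13728 on day 1 and 7326 in the adult, although another probe set of Col3a1 gave a log2 ratio of -2.55. Fmod, fibromodulin, fell from 1908 in the neonatal to 193 in the adult ovary, 9.90-fold. Tnc, tenascin C, was the matrix gene that rose: it read 351 on the neonatal and 3092 on the adult array, 8.80-fold higher. Of the small proteoglycans of stroma, Dcn read 11345 on day 1 and 6552 in the adult, Lum read 2233 on day 1 and 1791 in the adult, and Ogn read 1723 in the neonatal and 4187 in the adult ovary, 2.43-fold higher.

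Of 15 basement membrane genes 3 fell: Npnt, Nid2 and Agrn. Npnt, nephronectin, fell from 2163 in the neonatal to 294 in the adult ovary, 7.36-fold, with log2 ratios of -3.30 and -0.04 for its other probe sets above the floor on both arrays. Agrn, agrin, read 2667 on the neonatal and 638 on the adult array, 4.18-fold lower, and Nid2 read 1699 in the neonatal and 386 in the adult ovary, 4.40-fold lower. With the signals as deposited 1 of them fell. Col4a1, a chain common to basement membranes, read 6549 on day 1 and 4241 in the adult, and Lama1, a laminin chain, read 409 in the neonatal and 1283 in the adult ovary, 3.13-fold higher. Smooth muscle held 0 called genes of 14: Acta2 read 8769 on day 1 and 8394 in the adult, Myh11 read 620.0 in the neonatal and 1487 in the adult ovary, 2.40-fold higher, and Actg2 read 572 in the neonatal and 1639 in the adult ovary, 2.87-fold higher. Endothelial genes, 19 measured, gave 1 rise, Sox18, which rose from 99.7 in the neonatal to 468 in the adult ovary, 4.70-fold, and a median log2 ratio of -0.04, which turned to 0.38 with the signals as deposited and to 0.08 with scaling to the same median. Of the vessel markers, Pecam1 read 316 on day 1 and 255 in the adult, and Cdh5 read 380.4 on day 1 and 446 in the adult.

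Some of the genes that pattern the embryo were lower in the adult. Of 29 measured Hox genes 6 fell and 0 rose, with a median log2 ratio of -0.78. Hoxa9 read 1903 in the neonatal ovary and was at the floor in the adult ovary, at least 25.3-fold lower, but its other probe set gave a log2 ratio of -0.50. Hoxa5 read 753 in the neonatal ovary and was at the floor in the adult ovary, at least 10.0-fold lower, with -1.46 for its other probe set, Hoxb5 read 791 in the neonatal ovary and was at the floor in the adult ovary, at least 10.5-fold lower, and Hoxb6 read 487 in the neonatal ovary and was at the floor in the adult ovary, at least 6.46-fold lower. Hoxa10 and Hoxa11, which pattern the reproductive duct, read 342 and 371 on day 1 and were at the floor in the adult. The Hoxd genes did not follow: Hoxd8 read 684 on day 1 and 763 in the adult, Hoxd9 read 1374 on day 1 and 1617 in the adult, and Hoxd10 read 422 on day 1 and 372 in the adult. In the gonad and mesenchyme list 3 of 30 fell, and 1 with the signals as deposited. Nr2f1 read 688 in the neonatal and 91.7 in the adult ovary, 7.49-fold lower. Meis1 fell from 1532 in the neonatal to 311 in the adult ovary, 4.92-fold, and Meis2 read 2153 on the neonatal and 424 on the adult array, 5.07-fold lower. Wt1, of the embryonic gonad and later the granulosa cells, read 3291 in the neonatal and 1245 in the adult ovary, 2.64-fold lower. Genes of fetal growth gave 2 falls of 22: Afp, which is also a liver product, and Igf2bp3, an RNA-binding protein of fetal tissue, which fell from 807 in the neonatal to 82.1 in the adult ovary, 9.83-fold, with log2 ratios of -2.20 and -1.68 for its other probe sets above the floor on both arrays.

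The last group of losses comprised epithelia and other tissues. Of 21 genes of duct and oviduct epithelium 15 fell, with a median log2 ratio of -2.41. Without cross-hybridizing probe sets 8 fell, but Cldn3, Epcam and Krt8 had no other probe set and were then not measured. Plet1 was then read by a probe set with a log2 ratio of -0.64. Ovgp1, the oviduct glycoprotein, read 1961 in the neonatal ovary and was at the floor in the adult ovary, at least 26.040-fold lower, and it was at the floor in the fetal ovary. Plet1, a marker of epithelial progenitors, read 2250.1 in the neonatal and 77.8 in the adult ovary, 28.9-fold lower, with a log2 ratio of -0.64 for its other probe set above the floor on both arrays. Keratins of simple epithelia fell together. Krt18 went from 4779 to 723, Krt8 from 4565 to 1126, Krt19 from 3556 to 488 and Krt7 from 2163 to 299.7. Cdh1, the epithelial cadherin, fell from 1518 in the neonatal to 339 in the adult ovary, 4.47-fold, and Pax8, a factor of the duct, read 437 in the neonatal ovary and was at the floor in the adult ovary, at least 5.81-fold lower. Fetal signals of these 4 keratin genes, 2218, 1976, 1599.8 and 1024, lay between those of the other 2 ovaries.

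Surface epithelium, the sheet that covers the ovary itself, gave 6 falls of 13 and a median log2 ratio of -1.74. Upk3b read 4501 in the neonatal and 765 in the adult ovary, 5.88-fold lower, Msln, mesothelin, fell from 1051 in the neonatal to 181 in the adult ovary, 5.82-fold. Lrrn4 read 770.0 on the neonatal and 91.3 on the adult array, 8.43-fold lower. Lgals2 read 694 on day 1 and 610.0 in the adult and did not share this fall. Nerve genes gave 6 falls of 16: Nefm, the medium neurofilament chain, read 5651 in the neonatal ovary and was at the floor in the adult ovary, at least 75.1-fold lower, and Nefl read 1889.6 in the neonatal ovary and was at the floor in the adult ovary, at least 25.1-fold lower. Stmn2, of growing axons, read 1492 in the neonatal ovary and was at the floor in the adult ovary, at least 19.8-fold lower, and Th, which begins catecholamine synthesis, read 369.7 in the neonatal ovary and was at the floor in the adult ovary, at least 4.91-fold lower. Of the glial genes, Sox10 read 133 on day 1 and 121 in the adult, and S100b read 101 on day 1 and 196 in the adult. Skeletal muscle gave 4 falls of 10, or 2 with the signals as deposited, led by Acta1, the muscle actin, which read 1309.6 in the neonatal ovary and was at the floor in the adult ovary, at least 17.4-fold lower.

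Liver and plasma genes gave 4 falls of 10, among them Alb, albumin, which read 1505 in the neonatal ovary and was at the floor in the adult ovary, at least 19.992-fold lower. Afp, its fetal relative, read 2807 in the neonatal ovary and was at the floor in the adult ovary, at least 37.3-fold lower. Apoa1 went the other way, at 453 on day 1 and 1275 in the adult. Mast cell genes gave 3 falls of 9: Cpa3, the mast cell carboxypeptidase, fell from 1555 in the neonatal to 79.7 in the adult ovary, 19.5-fold. Cma1, a chymase, read 1256 in the neonatal ovary and was at the floor in the adult ovary, at least 16.7-fold lower, and Gata2, a factor of blood cells, read 1713 in the neonatal and 296 in the adult ovary, 5.80-fold lower. In the fetal ovary Nefm, Acta1, Alb and Cpa3 read 900.1, 227, 539 and 579, and in the neonatal testis 255, 163, 522 and 178. All 4 of these neonatal testis values were below those of both younger ovary arrays. Afp differed, at 2359 in the neonatal testis and 1671 in the fetal ovary. The liver and plasma sum was also higher in the neonatal testis, 3736, than in the fetal ovary, 2682. Red blood cell genes gave 1 fall of 12: Alas2, which begins heme synthesis, read 435 in the neonatal ovary and was at the floor in the adult ovary, at least 5.78-fold lower. It read 1604 in the fetal ovary. Motile cilia genes, which mark the oviduct, gave 0 calls of 20, and 10 of them were at the floor on both arrays.

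Of the genes with the largest ratios, several belong to none of the groups above. Cnmd, a secreted inhibitor of vessel growth, read 94.0 on the neonatal and 4425 on the adult array, 47.1-fold higher. Acsbg1, which activates long-chain fatty acids, read 99.7 in the neonatal and 3552 in the adult ovary, 35.6-fold higher, and Hao2, a peroxisomal oxidase, rose from 87.2 in the neonatal to 3066 in the adult ovary, 35.1-fold. Abcb1b, a drug efflux pump, read 78.9 on the neonatal and 2057 on the adult array, 26.1-fold higher, and Cemip, which degrades hyaluronan, read 87.5 in the neonatal and 1973 in the adult ovary, 22.5-fold higher. Pak3, a kinase, rose from 100.4 in the neonatal to 1634 in the adult ovary, 16.3-fold. Among those at the floor on day 1, Mgarp, a mitochondrial protein of steroid-making cells, read 6949 in the adult, at least 92.3-fold higher. Agt, angiotensinogen, and Slc38a5, a glutamine transporter, read 1409 and 1625 in the adult, and Apoa4, Serpina5 and Plin4 read 2169.7, 1414 and 1226.

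Genes outside the groups were also prominent among those that fell. Agtr2, the type 2 angiotensin receptor, read 4286 on the neonatal and 139.6 on the adult array, 30.7-fold lower; its ligand's precursor gene, Agt, moved the other way. Ptn, a growth factor of mesenchyme, read 3665 in the neonatal and 147 in the adult ovary, 24.9-fold lower, with a log2 ratio of -0.21 for its other probe set above the floor on both arrays. Dclk1, a kinase that binds microtubules, fell from 2257 in the neonatal to 93.3 in the adult ovary, 24.2-fold, and Rsph3a read 1767 on the neonatal and 79.8 on the adult array, 22.1-fold lower. Among those at the floor in the adult, Moxd1 and Ecrg4 read 4237 and 2345 on day 1, and Wfdc2, a secreted protein of duct epithelium, read 2031. Fndc1, in the same state, read 2345 on day 1.

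Probe sets gave a further check on the called genes. Of the 270 that rose 103 had another probe set above the floor, and in 98 of these all of them went the same way. Of the 343 that fell 135 had one, and in 129 all went the same way. The exceptions, where a probe set of the gene lay on the other side of a ratio of 1, by little for Sc5d and Atp8a2, were Asah2, Malat1, Neat1, Sc5d and Syt7 among the genes that rose, and Adamtsl5, Atp8a2, Bzw2, Iqca, Rab11fip4 and Tmem242 among those that fell.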

How the data were processed

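Each of the 6 samples was measured on 1 array with 45101 probe sets. The deposited values are probe set intensity signals on a linear scale; per the submitters' processing notes GCOS version 1 was used, and the sources used here do not say what it did, how background was removed or whether arrays were scaled. Deposited signals reached from 1.0 to 16994.7, and their mean after dropping 2% at each end lay between 256 and 353. Each array was scaled to the same trimmed mean, values were floored at 75.3, the 50th percentile over all arrays, and a gene was read by its brightest probe set over the arrays among the 34945 with 1 gene symbol in the platform annotation (932 had several, 9160 had none and 64 were controls). Of 18193 genes, 18145 had a symbol in the RefSeq table.

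The design has 1 array per group, so no test was run, and a ratio of 4 served as the threshold; their number limits what can be said. The named genes are, for rises and falls alike, the 12 of largest ratio that exceeded the floor in both ovaries, the 12 brightest of those at the floor in one ovary, and the list members a result is about. The members and lists were chosen with earlier results of these data known, and the lists of liver and plasma proteins and of mast cells were added after their values had been seen. Alternatives covered scaling, floor, choice of probe set, threshold and the fetal ovary as reference. The steps were also run on simulated data, made from the neonatal ovary array with known rises planted in genes well above the floor. That run planted no falls and no rises of genes near the floor. Python 3.11.15, pandas 2.3.3, numpy 2.4.6 and matplotlib 3.10.9 were used.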

Additional observations from a re-analysis of the deposited data

Results flagged for a closer look

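The same contrast of ages was available in the testis, 1 array a side. Of the genes named for the size of their ratio, 11 differed 4-fold or more in opposite directions in the 2 gonads; these differences between gonads were not tested, since each rests on 1 array per age. All values are log2 ratios of adult over neonatal tissue.

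Among genes higher in the adult ovary, Cnmd was at 5.56 in the ovary and -2.79 in the testis, Hao2 at 5.13 and -2.72, and Pak3 at 4.02 and -4.44. The inhibin and activin chain gene Inhba was at 4.84 in the ovary and -3.91 in the testis, and Inhbb at 4.45 and -3.28. Inhbb read 4279 in the neonatal testis and 441 in the adult testis. Greb1 was at 3.99 and -4.13, and Slc38a5 at 4.43 and -2.17. Of the steroid enzymes, Cyp11a1 was at 7.24 and -2.30, and Hsd17b1 at 5.78 and -5.33. Cyp11a1 read 3025 in the neonatal testis and 612 in the adult testis, while Hsd17b1 read 3037 in the neonatal testis and the floor in the adult.

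Among genes lower in the adult ovary, Sycp3 was at -4.87 in the ovary and 3.08 in the testis, and Mael at -4.61 and 2.32. Sycp3 read 481 in the neonatal and 4067 in the adult testis. Of the 270 genes that rose in the ovary, 54 were 4-fold or more lower in the adult than in the neonatal testis, 10 were higher and 206 were not called. Of the 343 that fell in the ovary, 36 were higher in the testis, 83 were lower and 224 were not called. The share of all genes that differed 4-fold in the testis is not given here. These counts therefore cannot be read as more or fewer than that share.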

How the results depend on the processing

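The threshold and the floor moved the counts most. At a ratio of 2 there were 1067 genes higher and 1249 lower in the adult ovary, and at a ratio of 8 there were 74 and 89. With the floor at the 75th percentile 100 genes were higher and 93 lower, with the floor at the 25th percentile 622 were lower, and with no floor but 16 added to every signal 516 were lower. Left unscaled, 194 genes were lower. The remaining alternatives kept both counts within 1.5 times of 270 and 343: quantile normalization gave 267 and 343, the same median 309 and 279, the hybridization controls 219 and 393, the mean of a gene's probe sets 239 and 265, and probe sets that cannot cross-hybridize 235 and 276 of 16591 genes. With the fetal ovary as reference 368 were higher and 305 lower. Of the 270 genes higher against the neonatal ovary 216 were still called, and of the 343 lower genes 165. Over the alternatives, 348 of 478 log2 ratios of single genes, 422 of 500 list medians and 951 of 1000 counts of list members stayed within the spread between probe sets or, for counts, within 1.5 times. The rest moved. Beside the counts given with each list, with the signals as deposited 1 maternal store gene and 0 ovulation genes fell, and 3 macrophage genes, 1 basement membrane gene and 1 gonad and mesenchyme gene rose. After quantile normalization 2 cell cycle inhibitors fell. With the hybridization controls 3 cell cycle inhibitors and 1 theca gene fell, and 0 fatty acid oxidation genes rose. Without cross-hybridizing probe sets 1 oocyte transcription factor rose. The falls then came to 0 for red blood cells and 1 each for fetal growth, gonad and mesenchyme and mast cells. For skeletal muscle and for liver and plasma they came to 2 each. Genes without any other probe set, Obox2 among them, were not measured in that setting, so a lower count there need not mean a smaller ratio. Besides the medians already given, those of complement, follicle assembly and oocyte survival genes turned from -0.14, -0.24 and -0.30 to 0.13, 0.17 and 0.11 without scaling. The median of the theca list turned to -0.18 with the mean of all probe sets, and that of cell cycle inhibitors from 0.11 to -0.03 without cross-hybridizing ones. The oxidative phosphorylation median, -0.12, turned to 0.05 after quantile normalization and to 0.30 without scaling. Signal limits the low end: 4932 of 18193 genes were at the floor on both arrays, where a difference was not detectable. With 1 array a side nothing here measures variation between animals.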

Other observations

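Gene families not described above were counted by symbol after their values had been seen, so the counts describe these 2 arrays only. Oocyte gene families rose in part. Of 3 oocyte secreted protein genes 2 rose, Oosp1 and Oosp3, and of 13 genes of the PRAME-like and Oog families 5 rose and 1 fell. Oog3 was at the floor in the neonatal ovary and read 374 in the adult ovary, at least 4.96-fold higher, and Oog4 was at the floor in the neonatal ovary and read 303 in the adult ovary, at least 4.03-fold higher. Of 10 measured genes from Fbxw13 to Fbxw28, a cluster of F-box genes made by oocytes, 3 rose: Fbxw19, Fbxw21 and Fbxw24. Fbxw21 read 84.9 on the neonatal and 409 on the adult array, 4.82-fold higher. Members of these families are close copies of each other, so their probe sets may report on more than 1 of them.

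Perilipins, which coat lipid droplets, gave 2 rises of 4. Plin4 was at the floor in the neonatal ovary and read 1226 in the adult ovary, at least 16.3-fold higher, and Plin5 was at the floor in the neonatal ovary and read 420.1 in the adult ovary, at least 5.58-fold higher. Plin2, the perilipin of many cell types, read 2708 in the neonatal and 3573 in the adult ovary, 1.32-fold higher. Thrombospondins split: Thbs1 read 102 in the neonatal and 727 in the adult ovary, 7.15-fold higher, and Thbs4 rose from 139 in the neonatal to 1458 in the adult ovary, 10.5-fold, while Thbs2 read 615 on the neonatal and 144 on the adult array, 4.27-fold lower, and Thbs3 read 850.4 in the neonatal ovary and was at the floor in the adult ovary, at least 11.3-fold lower. The long noncoding RNA Neat1, which builds nuclear paraspeckles and is needed for the corpus luteum, rose from 329 in the neonatal to 2063 in the adult ovary, 6.27-fold, but another of its probe sets was lower in the adult.

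Of 17 circadian clock genes 0 passed the threshold, while 1 rose after quantile normalization or without cross-hybridizing probe sets and 2 with the signals as deposited or scaled to the same median. Dbp read 641 in the neonatal and 2513 in the adult ovary, 3.92-fold higher, and Bhlhe40 read 221 in the neonatal and 872 in the adult ovary, 3.94-fold higher; the hour at which tissue was taken was not given in the sources used here. Of 11 measured S100 genes 2 fell and 1 rose, S100a4. The neutrophil product S100a8 fell from 1116 in the neonatal to 115 in the adult ovary, 9.73-fold. S100a9, another such product, read 674 in the neonatal ovary and was at the floor in the adult ovary, at least 8.96-fold lower. Of 44 keratin genes 4 fell, the same 4 named among the duct markers, and 26 were at the floor on both arrays. Of 20 claudin genes, which seal epithelia, 5 fell and 0 rose.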
